A study of Homo sapiens with 2 samples.

Results

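MicroRNA host genes are the transcription units from which microRNA hairpins are cut, and 6 of them were examined for ADAR1 clusters: MIR17HG, VMP1, MCM7, MIR22HG, MIR100HG and MIRLET7BHG. A cluster was counted for a gene when its midpoint lay in a fixed hg19 window on the gene's strand, and 24 of the 23782 clusters in the list met this rule. The data come from CLIP-seq, in which ultraviolet light links a protein to the RNA it touches before the protein is pulled down and the RNA sequenced. The cells of both libraries were U87MG, with no drug or genetic change given, an established human glioblastoma (astrocytoma) line at passage 6, and a mouse monoclonal antibody to ADAR1 was used in both libraries. One library is labelled AB1 and the other AB2. The series text speaks of different antibodies, but both libraries carry the same catalogue entry.

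The deposited list is shared by both libraries. It gives the position, strand and class (Alu or non-Alu) of each cluster, with no read count, so no depth can be given for any cluster and AB1 cannot be compared with AB2. The list also carries no expression level, so glial markers were not analysed here. Every value below is a count or a length without replicates, no test was made, and a window without a cluster shows only that none is listed there.

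ADAR1 is an RNA-editing enzyme that deaminates adenosines in base-paired RNA to inosines. A primary microRNA transcript folds into hairpins that Drosha cuts in the nucleus and Dicer trims in the cytoplasm, and ADAR enzymes can bind and edit such hairpins. Alu repeats, which are frequent in introns, form the other large class of human double-stranded RNA when copies in opposite orientation pair. The mature microRNA finds its targets mainly through its seed, bases 2 to 8 from its 5′ end.

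The microRNAs of the 6 genes are shown first because several of the genes make the same seed. Of 16 microRNA genes looked up by name in RefSeq (GRCh38.p14), all 16 had a mature sequence and 14 a hairpin. Seeds are in capitals. The first sequences are the let-7 family, regulators of differentiation made by both MIR100HG and MIRLET7BHG. MIR100HG (hairpin let-7a-2) and MIRLET7BHG (hairpin let-7a-3) give the identical let-7a-5p.
hsa-let-7a-5p: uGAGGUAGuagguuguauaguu
hsa-let-7b-5p: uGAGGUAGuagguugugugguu
MIR100HG also makes miR-100 and miR-125b.
hsa-miR-100-5p: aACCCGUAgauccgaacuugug
hsa-miR-125b-5p: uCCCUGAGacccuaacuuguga
The primary transcript of miR-21, an oncogenic microRNA abundant in glioblastoma, overlaps the downstream end of VMP1.
hsa-miR-21-5p: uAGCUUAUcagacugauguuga
MIR17HG and MCM7 share a pair of seeds. The first is carried by miR-17 and miR-20a of MIR17HG and by miR-106b and miR-93 of MCM7, and the second by miR-92a of MIR17HG and miR-25 of MCM7.
hsa-miR-17-5p: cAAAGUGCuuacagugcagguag
hsa-miR-20a-5p: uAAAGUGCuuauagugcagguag
hsa-miR-106b-5p: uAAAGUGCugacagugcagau
hsa-miR-93-5p: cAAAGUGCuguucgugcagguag
hsa-miR-92a-3p: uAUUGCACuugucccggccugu
hsa-miR-25-3p: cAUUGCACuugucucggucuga
MIR22HG makes miR-22.
hsa-miR-22-3p: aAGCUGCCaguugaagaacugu

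Clusters were listed in 4 of the 6 genes. VMP1 and MIR100HG held 8 each, MIRLET7BHG held 7 and MCM7 held 1, while MIR17HG and MIR22HG held 0. The genes that make let-7 held 15 clusters between them, in windows of 114 and 60.2 kb. The genes that share the miR-17 and miR-92a seeds held 1, in windows of 9.101 and 6.901 kb. With windows this unlike in length, the counts are no contrast between seeds. The windows differ in length from 4.901 to 134.2 kb, and the genes with the fewest clusters have the shortest windows. Per 10 kb, MIRLET7BHG held 1.16 clusters, MCM7 1.1, MIR100HG 0.702 and VMP1 0.596. With a single cluster, the MCM7 density has little precision. The MIR100HG window covers 114 kb of a gene that RefSeq gives 394.5 kb on GRCh38, and the MIRLET7BHG window is longer than its gene. The densities of both depend on these windows, and so does the order of the genes.

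**Figure D1:**
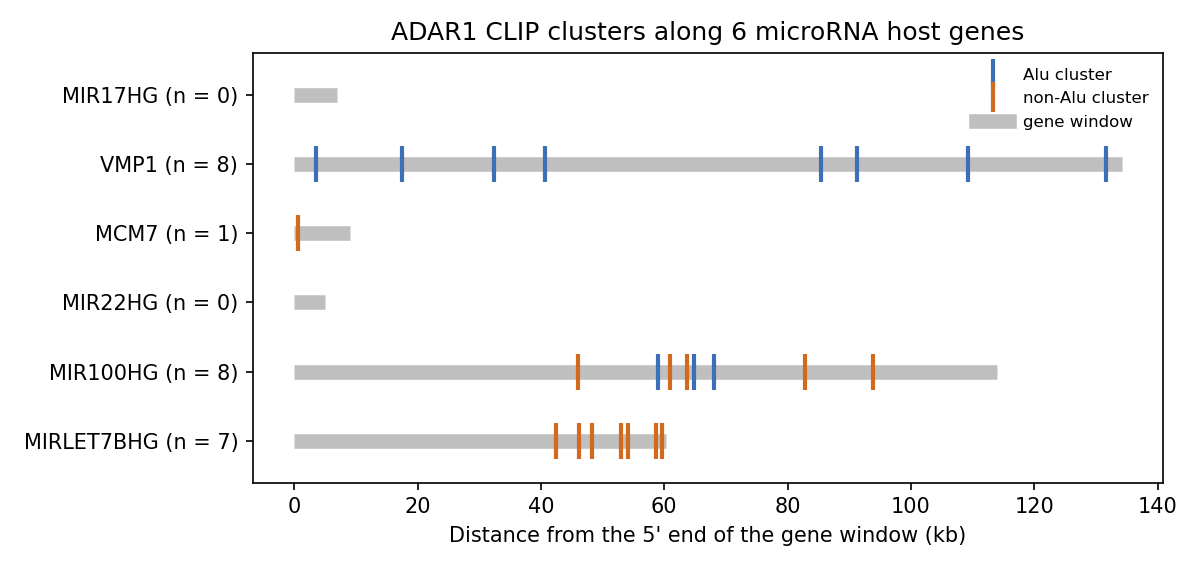
Position of each ADAR1 cluster along the 6 gene windows, as the distance in kb of its midpoint from the 5′ end of the window (horizontal axis), with Alu clusters in blue, non-Alu clusters in orange and each window as a grey bar. The 7 MIRLET7BHG clusters sit between 42.48 and 59.6 kb in a window of 60.2 kb, and the 8 VMP1 clusters run through nearly the whole window.

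The class of the clusters differed from gene to gene. Over the 6 genes, 11 clusters were Alu and 13 non-Alu, an Alu share of 45.8% (Wilson 95% interval 27.9 to 64.9%), against 84.9% in the whole list. All 8 VMP1 clusters were Alu (interval of the share 67.6 to 100%). None of the 7 MIRLET7BHG clusters was Alu (0 to 35.4%), and MIR100HG had 3 Alu and 5 non-Alu clusters (13.7 to 69.4%). The pooled share thus joins an all-Alu and an all-non-Alu gene with the mixed MIR100HG. The VMP1 interval holds the 84.9% of the whole list, while the MIR100HG and MIRLET7BHG intervals lie below it. Intervals cover counting error only, and clusters of 1 transcript are not independent.

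MIRLET7BHG, on the plus strand of chromosome 22, is a long noncoding RNA that carries let-7a-3 and let-7b. Its window ran from 46449700 to 46509900, 60.2 kb, whereas RefSeq gives the gene 27.93 kb on GRCh38. All 7 clusters were non-Alu and lay in the downstream part of the window: with the window split into 4 equal parts, the last part held 6, the third part 1 and the others 0. From first to last they spanned 17.2 kb, or 28.6% of the window. Because the window is longer than the gene as RefSeq gives it, this share, the density per 10 kb and the crowding toward the downstream end all depend on where the window begins.

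The first MIRLET7BHG cluster lay from 46492108 to 46492251 (144 bases), the longest of the gene. The next were at 46495818 to 46495902 (85 bases) and 46497851 to 46497947 (97 bases), with gaps of 3566 and 1948 bases before each. These 3 lay 12 to 17.7 kb from the downstream end of the window. Then, after 4688 bases, a pair followed at 46502636 to 46502754 (119 bases) and 46503833 to 46503949 (117 bases), 1078 bases apart. The last pair lay at 46508347 to 46508477 (131 bases) and 46509266 to 46509331 (66 bases), 788 bases apart. Their midpoints were 1.488 and 0.602 kb from the downstream end of the window, the closest to an end of any MIRLET7BHG cluster.

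The let-7a-3 and let-7b hairpins lie toward the downstream end of this gene in RefSeq on GRCh38. There they are separated by 863 bases, and end 1106 and 160 bases before the 3′ end of the gene. The hairpins are shown, with both mature strands in capitals, because they are the microRNA precursors that this host carries.
let-7a-3 hairpin: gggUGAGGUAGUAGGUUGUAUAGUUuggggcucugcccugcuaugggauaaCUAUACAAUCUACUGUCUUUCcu
let-7b hairpin: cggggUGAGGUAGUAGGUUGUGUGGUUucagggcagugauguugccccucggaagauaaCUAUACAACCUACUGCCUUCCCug
The hairpins are 74 and 83 bases long and hold 14 and 16 adenosines, the base that ADAR1 converts. Positions on GRCh38 and hg19 are not interchangeable, and hg19 positions of the hairpins were not used here. Whether a cluster covers or flanks a hairpin was therefore not tested, and the distances in each build stand side by side only.

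Among all tiles of 60.2 kb laid along both strands of the genome, 0.0467% held at least 7 clusters on a strand and 0.0244% at least 7 non-Alu clusters. The tiles include sequence that is not transcribed, while the window was placed on a gene, so this background places the count and is no test. Of the 14977 tiles that held any cluster, 46 held 7 or more. Runs of 7 or more non-Alu clusters in a row on a strand occurred 38 times in the list, the longest with 31. In 11 of these runs 7 clusters fit within the 17224 bases that the MIRLET7BHG clusters take up. MIRLET7BHG is itself among the 38 and the 11, as the number and the span are its own.

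MIRLET7BHG clusters were short. Their lengths ran from 66 to 144 bases with a median of 117 (exact 95% interval 66 to 144), against a median of 191 for all non-Alu clusters (189 to 193). All 7 lay below the list's median of 192. Of all non-Alu clusters, 26.4% were no longer than the longest of these, and 2.60% no longer than the shortest. Of the 11 runs just described, 1 had 7 such clusters with none above 144 bases, and that run is MIRLET7BHG itself. This comparison was chosen after the lengths were seen. The number of clusters, the span and the limit of 144 bases were all taken from MIRLET7BHG, so it had to pass. The count of 1 is therefore no test of whether the gene stands apart. Per the labels, PCR products of 75 to 250 bases were selected, the same for every gene.

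MIR100HG, on the minus strand of chromosome 11, is the long noncoding host of miR-100, let-7a-2 and miR-125b-1. The window, 121959800 to 122073800, is 114 kb, while RefSeq gives the gene 394.5 kb on GRCh38, so the window covers a part of it. The positions and parts given below are those of the window, not of the whole gene. The 8 clusters lay from 46.07 to 93.82 kb along the window, with 0, 1, 6 and 1 in the 4 equal parts of the window from its upstream end. In the direction of transcription they alternated between classes: a non-Alu cluster, an Alu cluster, 2 non-Alu, 2 Alu and 2 non-Alu.

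The first MIR100HG cluster in the direction of transcription was non-Alu, at 122027625 to 122027842 (218 bases). After a gap of 12779 bases came 5 clusters separated by 952 to 3098 bases, the tightest part of the gene. They began with an Alu cluster at 122014745 to 122014845 (101 bases). Non-Alu clusters followed at 122012681 to 122012942 (262 bases) and 122009953 to 122010236 (284 bases), the longest of all 24. Alu clusters closed this group at 122008884 to 122009000 (117 bases) and 122005727 to 122005785 (59 bases), the shortest of all 24. Of these 5, the neighbours 952 bases apart were of different class, non-Alu then Alu. The remaining 2 were non-Alu and farther apart, at 121990908 to 121991172 (265 bases) and 121979875 to 121980082 (208 bases).

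In MIR100HG the lengths of the classes did not overlap. The 3 Alu clusters measured 59, 101 and 117 bases, and the 5 non-Alu clusters 208, 218, 262, 265 and 284 bases. Each Alu cluster was shorter than each non-Alu cluster, although the medians of the classes in the whole list were 193 and 191 bases. Only 0.584% of Alu clusters in the list were as short as the shortest of these, and 11% as short as the longest. The non-Alu clusters stood between the 64.0 and 94.6 percent points of their class. The non-Alu clusters of MIR100HG and MIRLET7BHG did not overlap in length either: the shortest in MIR100HG had 208 bases and the longest in MIRLET7BHG 144. These are descriptions of few clusters, noticed in the data.

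**Figure D2:**
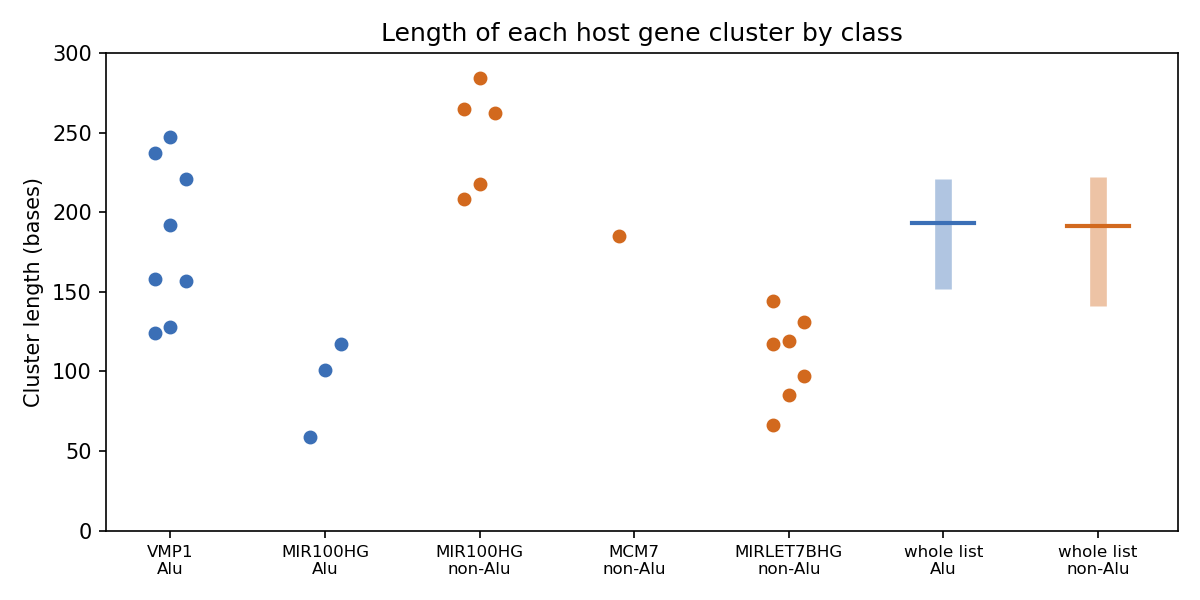
Length in bases (vertical axis) of each of the 24 host gene clusters, 1 point per cluster, by gene and class, with the median (line) and the middle 50% (pale bar) of all Alu and all non-Alu clusters at the right. MIRLET7BHG clusters lie at 66 to 144 bases, below the 208 to 284 bases of the non-Alu clusters of MIR100HG.

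Among tiles of 114 kb, 0.136% held at least 8 clusters on a strand, and 0.127% held at least 5 non-Alu clusters, as the MIR100HG window did. As before, these tiles include untranscribed sequence. Of the 12093 tiles that held any cluster, 71 held 8 or more. Around the window the minus strand was bare. The next cluster upstream was 872 kb from the window and the next downstream 2447 kb. Counted from the outermost MIR100HG clusters, the gaps were 918 and 2467 kb, and 6.52% and 1.69% of the 23734 gaps between consecutive same-strand clusters were at least as long (median gap 45.7 kb). A window made longer by up to 872 kb upstream or 2447 kb downstream would thus add no cluster. It would lower the density per 10 kb and change the share of tiles with as many clusters.

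VMP1, on the plus strand of chromosome 17, encodes a vacuole membrane protein needed for autophagy, and its window of 134.2 kb, 57784800 to 57919000, takes in the end that carries miR-21. The 8 clusters, all Alu, were spread from 3.574 to 131.7 kb, over 95.5% of the window. The 4 equal parts of the window held 3, 1, 2 and 2. No VMP1 cluster had a same-strand neighbour within 5000 bases, and the smallest gap was 5678 bases.

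Toward the upstream end, VMP1 clusters lay at 57788296 to 57788452 (157 bases), 57802177 to 57802300 (124 bases, the shortest), 57817129 to 57817349 (221 bases) and 57825298 to 57825455 (158 bases). A stretch of 44569 bases without a cluster followed, the widest within any of the genes. Beyond it were clusters at 57870025 to 57870261 (237 bases) and 57875940 to 57876186 (247 bases, the longest), then at 57893859 to 57894050 (192 bases). The last lay at 57916394 to 57916521 (128 bases), with its midpoint 2.543 kb from the downstream end of the window. The miR-21 hairpin ends 918 bases before the 3′ end of VMP1 in RefSeq on GRCh38, and its position on hg19 was not used here.

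The median length of the VMP1 clusters was 175 bases (exact 95% interval 124 to 247), an interval that holds the median of 193 for all Alu clusters, and 4 of 8 lay below the list's median of 192. Among tiles of 134.2 kb, which again include untranscribed sequence, 0.213% held at least 8 clusters on a strand. Of the 11358 such tiles that held any cluster, 94 held 8 or more. Around VMP1, flanks of the same length held 5 clusters upstream, 4 of them Alu, and 3 downstream, all Alu. On the other strand these flanks held 1 and 3.

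MCM7, on the minus strand of chromosome 7, encodes a subunit of the replicative helicase and carries miR-106b, miR-93 and miR-25 in an intron toward its downstream end. Its window, 99690400 to 99699500, held 1 cluster, non-Alu, at 99698857 to 99699041 (185 bases, close to the non-Alu median of 191). The midpoint was 0.5515 kb from the upstream end of the 9.101 kb window. The miR-106b and miR-25 hairpins lie 1265 and 832 bases from the 3′ end of MCM7 in RefSeq on GRCh38. Of tiles of this length, 3.25% held at least 1 cluster.

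MIR17HG, the host of the oncogenic miR-17-92 group on the plus strand of chromosome 13, held 0 clusters in its window of 6.901 kb from 92000000 to 92006900. Its 6 hairpins, separated by 35 to 92 bases in RefSeq on GRCh38, form the densest group of hairpins among these genes. The nearest same-strand clusters were 5932 kb upstream and 321 kb downstream of the window, both Alu. MIR22HG, the host of miR-22 on the minus strand of chromosome 17, held 0 in its window of 4.901 kb from 1614700 to 1619600. The nearest there was an Alu cluster at 1609367 to 1609450, 5.25 kb beyond the downstream end. At least 1 cluster was found in 2.53% of tiles as long as the MIR17HG window and in 1.84% of tiles as long as that of MIR22HG. Most tiles of these lengths, which include untranscribed sequence, were empty, so a count of 0 in so short a window was common. The gap between the clusters on either side of MIR17HG was 6261 kb, and 0.185% of the 23734 same-strand gaps were at least as long. Around MIR22HG the gap was 74.8 kb, with 39.6% at least as long. The MIR17HG gap reaches far beyond the window of the gene.

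The strand was one-sided in the genes with clusters. The rule counts only clusters on the gene's strand, but the opposite strand of the 6 windows held 0 clusters. This was common: of tiles with as many clusters as the gene, the other strand was empty in 95.7% of 46 for MIRLET7BHG, in 90.1% of 71 for MIR100HG and in 78.7% of 94 for VMP1. Flanks of equal length on both sides held 0 same-strand clusters for 5 of the genes, all except VMP1. Most tiles were empty too: 12093 of 52042 tiles of 114 kb and 14977 of 98528 tiles of 60.2 kb held any cluster. For the MCM7, MIR17HG and MIR22HG lengths the shares were 3.25%, 2.53% and 1.84%. These tiles include untranscribed sequence and were not picked for lying beside a window with clusters. Whether empty flanks set any of these genes apart was therefore not tested. As the MIR100HG window covers a part of the gene, a flank may also lie within the same gene.

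**Figure D3:**
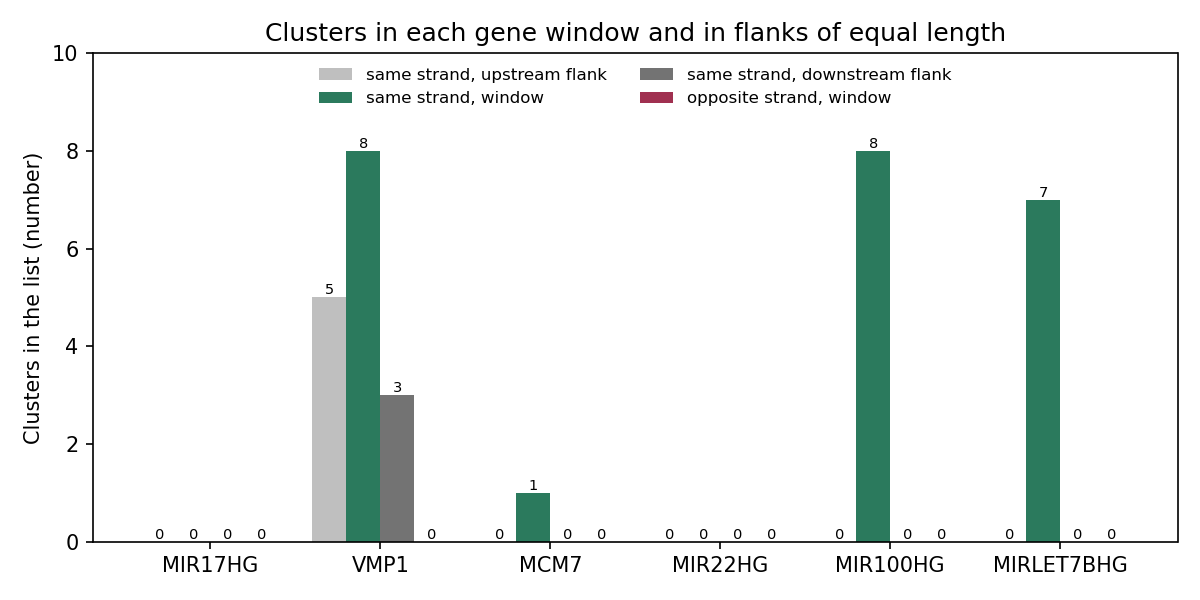
Number of clusters (vertical axis) in each gene window on the gene's strand (green), in upstream and downstream flanks of the same length on that strand (light and dark grey), and in the window on the opposite strand (red). MIR100HG and MIRLET7BHG hold 8 and 7 clusters between empty flanks, while VMP1 holds 8 between flanks with 5 and 3. Most tiles of these lengths are empty.

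Clusters lay closer together in the let-7 hosts, where most were non-Alu, than in VMP1, where all were Alu. The 3 Alu clusters of MIR100HG had their nearest same-strand clusters at 952, 1802 and 3098 bases, against 5678 or more in VMP1. Its 5 non-Alu clusters had theirs at 952, 1802, 10825, 10825 and 12779 bases. These are few clusters, and whether the spacing goes with gene or with class was not tested. A same-strand neighbour within 1000 bases was found for 4 of the 24 clusters (16.7%, Wilson 95% interval 6.68 to 35.9%), against 6.70% of the whole list. The list's share differs by class, 17.1% for non-Alu and 4.86% for Alu clusters, and 54.2% of the 24 are non-Alu against 15.1% of the list. By class, 3 of the 13 non-Alu host clusters (23.1%, 8.18 to 50.3%) and 1 of the 11 Alu host clusters (9.09%, 1.62 to 37.7%) had such a neighbour, and both intervals hold the share of their class in the list. The 4 were 2 in MIR100HG, 952 bases apart and of different class, and 2 in MIRLET7BHG, 788 bases apart. In each gene the 2 clusters are each other's neighbour, and the MIR100HG clusters enter the shares of both classes. The intervals take clusters as independent, which these are not, so they show no agreement with the list. Within 5000 bases, with the classes pooled, the share was 50% for the 24 and 22.8% for the list, with all 7 clusters of MIRLET7BHG, 5 of 8 in MIR100HG and 0 of 8 in VMP1. The list's share by class was not computed at this distance, so the larger non-Alu part of the 24 is not allowed for. Over the 24 clusters the median length was 150.5 bases (exact 95% interval 117 to 218), against 192 for the list, and 15 of 24 were shorter than 192. Of these 15, 7 were in MIRLET7BHG.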

How the data were processed

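CLIP-seq of ADAR1 was made from U87MG cells in 2 libraries, AB1 and AB2, irradiated with 254 nm light and amplified for 23 cycles, per the labels' protocols. The authors deposited 1 BED list of clusters on hg19 with positions, strand and class and no score. Per the submitters' processing notes, cutadapt 1.1 and Novoalign 2.08.22 were used. Not given in the sources used here are the cluster caller, its thresholds, the treatment of reads matching several places, any pooling of libraries and the rule for the Alu class. Each can change which clusters are listed and how long they are. Starts were read as counted from 0 and are printed counting from 1.

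Membership, lengths, gaps and tiles were computed with Python 3.11.15, numpy 2.4.6 and scipy 1.17.1, and figures drawn with matplotlib 3.10.9. Tiles run from the first to the last cluster of each chromosome, on both strands. Flanks have the length of the window. Wilson and order-statistic intervals are at 95% and cover counting error only. Membership code was tested on simulated data. The 6 genes, their windows and all lists were chosen with earlier results of these data known. Each of the 24 clusters is named, by a rule naming every cluster of a gene with at most 12. The reference at hand is on GRCh38, so exons, introns and other host genes were not analysed here.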

Additional observations from a re-analysis of the deposited data

How the results depend on the processing

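Of 65 alternative values, 59 stayed within the set range (1.5 times for counts, the 95% interval for shares and the median length). Some of these could not move. MIR17HG and MIR22HG hold 0 clusters, so leaving them out changes nothing, and no host cluster had a neighbour close enough to merge. The count of 16 without VMP1, or without MIR100HG, lies at the limit of 1.5 times. The tally is therefore no measure of robustness. The count of 24 was the same with any overlap, with whole clusters inside the window, with clusters within 50 bases merged, with windows widened by 1000 bases and with strand ignored, and no gene's count changed in the 18 values run per gene. Keeping clusters at or above the list's median length left 9 clusters, with a median length of 237 bases, by construction, and 0% with a neighbour within 1000 bases. Neighbours were counted again in the thinned list, so fewer were left to find. The share of the whole list under this filter was not computed. The share with a neighbour was 0% within 200 bases and 50% within 5000 bases. Without VMP1 the Alu share was 18.8% in place of 45.8%, because VMP1 holds 8 of the 11 Alu clusters. Leaving out any other gene kept that share between 45.8 and 64.7%. No paired analysis was possible because AB1 and AB2 are 1 library each and share the list, which also means that neither could be dropped. Other microRNA host genes, which need an hg19 annotation, were not run. Depth per cluster is unknown, so weak clusters and empty windows cannot be judged.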
